A study of Rattus norvegicus with 16 samples.

Results

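The 10 genes described here serve the synthesis, packaging, reuptake and breakdown of monoamine transmitters: Th, Ddc, Dbh, Gch1, Tph2, Slc18a2, Slc6a2, Slc6a4, Maoa and Maob. They were chosen by gene symbol in the array's annotation, with the probe set of highest mean kept for each gene. All 10 of 10 were found, each with 1 probe set, among 15037 named genes. The data are 16 Affymetrix arrays of male Wistar rats aged 8 to 10 weeks, 1 array for each of 4 brain regions under each of 4 treatments. The tissue was cut by laser from Nissl-stained sections of the solitary nucleus (Sol), of the habenula with its lateral (LHb) and medial (MHb) parts, and of the medial vestibular nucleus (MVe).

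Treatment lasted 60 minutes, and every group had 40% oxygen to breathe, at a flow of 6 L/min. One group inhaled sevoflurane at 2.4%, and its control received O2 without an anesthetic. Another was given a first dose of 10 mg/kg propofol into a vein and then an infusion of 36 mg/kg/hr, and its control received Intralipos, the lipid emulsion without propofol (10% lipid), on the same schedule. Because there was 1 array for each region and treatment, the 4 regions serve as the replicates of a treatment, and the 4 treatments as those of a region. The labels do not say which regions came from the same rat or how many rats an array held, so the p-values measure the spread between these arrays and may be too small.

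Catecholamines are made from tyrosine. Tyrosine hydroxylase (Th) makes L-DOPA with the help of tetrahydrobiopterin, whose synthesis starts with GTP cyclohydrolase (Gch1); aromatic amino acid decarboxylase (Ddc) turns L-DOPA into dopamine, and dopamine beta-hydroxylase (Dbh) turns dopamine into noradrenaline. Serotonin neurons use tryptophan hydroxylase 2 (Tph2) in the place of Th and the same decarboxylase. The vesicular transporter Slc18a2 loads all these amines into vesicles, the membrane transporters Slc6a2 and Slc6a4 return noradrenaline and serotonin to the cell, and the mitochondrial oxidases Maoa and Maob degrade them. In rodents the solitary nucleus holds the A2 noradrenaline and C2 adrenaline cell groups, next to the area postrema, while the habenula receives monoamine fibres and the vestibular nuclei receive fibres from the locus coeruleus and the raphe.

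The value of a gene is the deposited signal, taken as log2. On each array 23 background probe sets without rat sequence showed what the array reads without a target. They read from 2.97 to 6.94 over the arrays, and their highest value per array lay between 6.55 and 6.94. A gene under that highest value is called not above background below, and a fold against such a gene is given as a lower limit. The fold limit takes, on each dim array, the higher of that background value and the gene's own value. Where a region is not above background, the fitted difference depends on readings under that value, and its size is known only as far as the lower limit. The rule is strict, as the median of all gene values was 6.86. A gene that is not above background may still be expressed. Differences come from a linear model with region and treatment as terms (limma), are written as log2 ± standard error, and were called at a Benjamini-Hochberg adjusted p under 0.05 over all 15037 genes.

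The region labels were checked against marker genes, counted as called in the fit. Of all genes, 34.5% were called for Sol minus the other regions (18.5% higher). For LHb minus MHb the share was 28.5%, and for the mean of LHb and MHb minus that of Sol and MVe it was 38.1%. In Sol, 4 of 5 measured markers of the solitary nucleus were higher than in the other regions, among them the calcitonin receptor gene Calcr (4.06) and the glucagon precursor gene Gcg (3.97), which marks neurons of this nucleus. Of 6 measured medial habenula markers, 5 were lower and 1 was higher in LHb than in MHb. Of 4 measured lateral markers, 3 were higher and 1 was lower in LHb. Chat, which marks medial habenula neurons, lay between 11.22 and 12.20 in the MHb arrays and reached at most 6.73 elsewhere, and Htr2c was higher in LHb than in MHb by 4.06. Against its place on the lateral list, Gpr151 was lower in LHb than in MHb (-2.26), with values from 13.22 to 14.63 in LHb. Of 5 measured MVe markers, 4 were lower and 1 was higher in the mean of LHb and MHb than in that of Sol and MVe. This contrast does not separate MVe from Sol. In Sol against the other regions, 3 of the 5 MVe markers were lower and 1 was higher. Parvalbumin (Pvalb) lay between 16.73 and 17.37 in MVe and reached at most 9.64 elsewhere. The mean over all probe sets differs between the 8 arrays of sevoflurane and O2 and the 8 of propofol and Intralipos, with a median over genes of 0.19 to 0.21 between the sets in each region, so each anesthetic was compared within its own set.

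The promoters of the genes that set Sol apart are shown first. RefSeq (assembly GRCr8) gave an entry for 8 of the 10 genes, 250 bases before to 50 bases after the transcription start. Shown are Th (chr1:207508169-207508468, minus strand), Dbh (chr3:30886078-30886377, plus strand), Tph2 (chr7:52675590-52675889, minus strand) and Slc18a2 (chr1:268399771-268400070, plus strand), each 5′ to 3′ in the direction of transcription. Capitals mark the short cAMP element TGACG on either strand; overlapping pairs of it form the full cAMP response element TGACGTCA.
Th: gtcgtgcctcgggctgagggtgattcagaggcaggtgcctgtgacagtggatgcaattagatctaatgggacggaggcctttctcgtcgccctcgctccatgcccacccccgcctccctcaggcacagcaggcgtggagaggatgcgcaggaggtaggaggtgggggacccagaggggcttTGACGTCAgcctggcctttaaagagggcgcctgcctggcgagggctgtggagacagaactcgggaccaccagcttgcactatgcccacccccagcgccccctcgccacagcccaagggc
Dbh: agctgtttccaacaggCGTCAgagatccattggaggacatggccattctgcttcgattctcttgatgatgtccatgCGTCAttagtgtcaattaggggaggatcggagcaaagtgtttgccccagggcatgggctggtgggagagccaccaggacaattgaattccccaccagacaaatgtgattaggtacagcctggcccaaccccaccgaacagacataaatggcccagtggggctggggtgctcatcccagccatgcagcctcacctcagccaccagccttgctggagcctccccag
Tph2: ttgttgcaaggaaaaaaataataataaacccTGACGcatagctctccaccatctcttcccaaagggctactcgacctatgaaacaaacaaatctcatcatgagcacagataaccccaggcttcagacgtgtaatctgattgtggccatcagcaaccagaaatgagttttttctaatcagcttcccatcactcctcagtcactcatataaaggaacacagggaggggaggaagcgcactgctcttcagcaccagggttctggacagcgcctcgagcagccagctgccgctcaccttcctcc
Slc18a2: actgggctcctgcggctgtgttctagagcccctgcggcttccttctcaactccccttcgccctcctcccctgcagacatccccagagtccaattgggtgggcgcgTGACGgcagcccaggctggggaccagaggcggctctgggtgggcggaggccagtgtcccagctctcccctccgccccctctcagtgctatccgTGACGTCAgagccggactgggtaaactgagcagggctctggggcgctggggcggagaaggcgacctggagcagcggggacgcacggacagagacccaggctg
The full element TGACGTCA, searched on both strands, was found in Th, starting at position -69 from the transcription start, and in Slc18a2, starting at position -52. It was in 2 of the 8 genes, and 1.83% of 33465 RefSeq promoters of the same length hold it. The short element TGACG was in 6 of the 8 genes (Th, Dbh, Gch1, Maoa, Slc18a2 and Tph2), against 21.2% of all promoters. TATAAA, the TATA box sequence, was in Tph2 (position -46) and in 1 of the 3 promoters listed for Ddc. The Ddc match lay on the strand opposite to transcription (position -68). On either strand, 14.2% of all promoters hold the sequence. GGGCGG, the Sp1 box, was in 4 of the 8 genes, Gch1, Maoa, Maob and Slc18a2, against 33.1%. A gene was counted if any of its listed promoters matched, while the shares are of single promoters. The AP-1 site TGANTCA was in Th and in 1 of the 3 Ddc promoters, against 7.33%. The E box CANNTG was in all 8 genes, against 72.1%, and the homeodomain core ATTA in 5, against 60.6%. These are matches of letters in a window and say nothing of binding.

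Of the catecholamine synthesis genes, Th, Dbh and Gch1 were above background in Sol alone, and Ddc on every array of Sol and LHb. Th, the first and rate-limiting enzyme, read 11.03, 11.25, 11.40 and 10.89 in Sol under sevoflurane, O2, propofol and Intralipos. In the same order of treatments it read 4.06, 4.50, 4.36 and 4.74 in LHb, 4.67, 4.995, 4.89 and 4.97 in MHb, and 4.02, 3.84, 4.18 and 4.46 in MVe. The 4 Sol arrays stood apart from the other 12, of which none was above background. The fitted difference was 6.67 ± 0.13 (adjusted p = 2.9e-16), at least 21.1-fold.

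Dbh, which commits the pathway to noradrenaline, was likewise above background in Sol alone. Its Sol values were 10.70 under sevoflurane, 11.88 under O2, 11.39 under propofol and 10.16 under Intralipos. The other 12 arrays read between 3.20 and 3.78, and 0 of the 12 was above background. The fitted difference was 7.53 ± 0.21 (adjusted p = 1.7e-14), at least 19.6-fold. Across the treatments, and so across both array sets, the Sol values of Dbh spread more (SD 0.75, n = 4) than those of Th (SD 0.23, n = 4).

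Ddc, the decarboxylase that dopamine and serotonin synthesis share, was the one synthesis gene that was also above background on every array of a region outside Sol. It read 10.75, 11.03, 10.48 and 9.66 in Sol under sevoflurane, O2, propofol and Intralipos, and 9.89, 9.26, 8.31 and 8.47 in LHb. In MVe the values were 6.99, 6.46, 6.70 and 5.68, with 1 of 4 arrays above background, and in MHb 5.46, 6.07, 4.32 and 4.53, with 0 of 4. The differences were 1.497 ± 0.25 for Sol minus LHb (adjusted p = 0.00015) and, fitted, 2.52 ± 0.25 for LHb minus MVe (adjusted p = 3.1e-07). The fit also called MHb minus MVe (-1.36 ± 0.25, adjusted p = 0.00017), but 7 of those 8 arrays were not above background, so the order of these regions is not read from it. Sol was above LHb under each treatment, although the lowest Sol array (9.66) was under the highest LHb array (9.89). Both of these came from different array sets, and Ddc was higher in the sevoflurane and O2 set than in the other by 0.82 in Sol, 1.19 in LHb, 1.34 in MHb and 0.53 in MVe.

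Gch1, which starts the synthesis of the hydroxylases' cofactor, read 8.95, 8.26, 7.74 and 7.60 in Sol under sevoflurane, O2, propofol and Intralipos. The other 12 arrays read 5.22 to 6.16, and 0 of them was above background. All 4 Sol arrays exceeded them. The fitted difference was 2.40 ± 0.20 (adjusted p = 2.7e-08), and the mean of the Sol arrays was higher by at least 2.63-fold.

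Tph2, the neuronal enzyme of serotonin synthesis, was, like Th, above background in Sol alone. It read 10.48, 10.39, 10.65 and 10.60 in Sol under sevoflurane, O2, propofol and Intralipos, with the smallest spread over treatments of the synthesis genes there (SD 0.12, n = 4). The other 12 arrays read 3.87 to 4.95 and none was above background. The fitted difference was 6.31 ± 0.16 (adjusted p = 4.6e-15), at least 13.8-fold.

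The transporters were split. Slc18a2, the vesicular monoamine transporter, read 7.63, 7.01, 8.06 and 7.15 in Sol under sevoflurane, O2, propofol and Intralipos, all above background, and 3.73 to 4.51 in the other 12 arrays, none above background. It was higher in Sol by 3.34 ± 0.16 (adjusted p = 1.2e-11), at least 1.65-fold. Slc6a2, the noradrenaline transporter, read 5.93, 6.20, 6.54 and 6.01 in Sol and 3.93 to 5.54 elsewhere. Its groups did not overlap and the fit called it (1.76 ± 0.19, adjusted p = 6.3e-07), but none of its 16 values was above background, so no fold is given. Slc6a4, the serotonin transporter, read 4.95, 4.71, 4.83 and 4.88 in Sol and 4.26 to 5.37 elsewhere. Its groups overlapped, none of its 16 values was above background, and it was not called (0.15 ± 0.14, 95% interval -0.15 to 0.44, adjusted p = 0.471).

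**Figure D1:**
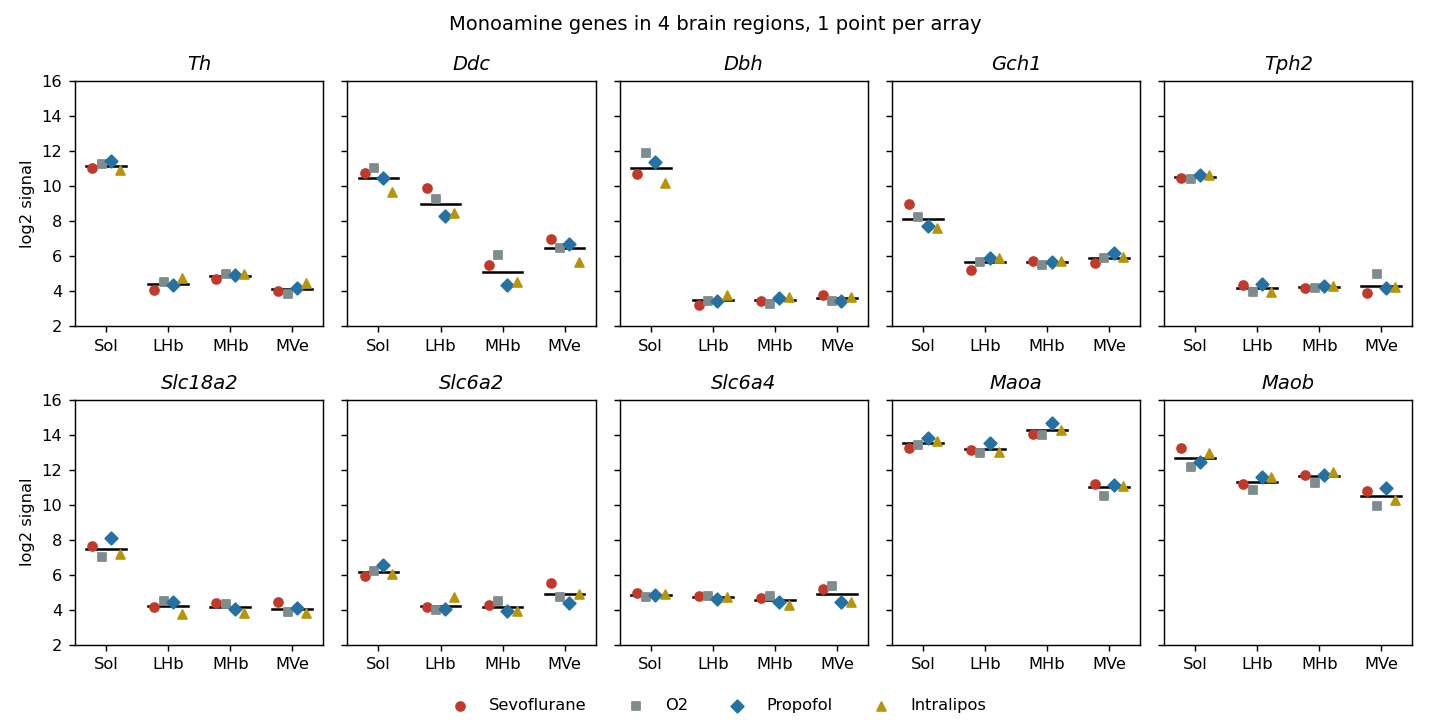
Log2 signal of the 10 genes (vertical axis) in Sol, LHb, MHb and MVe (horizontal axis), 1 point per array with colour and shape for the treatment and a bar at the mean of the 4 arrays. Th, Dbh and Tph2 lie above 10 in Sol and under 5.01 elsewhere, Ddc is also high in LHb, Slc6a4 is flat, and Maoa and Maob are bright in every region.

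The oxidase genes were above background on all 16 arrays and followed orders of their own. Maoa, which prefers serotonin and noradrenaline, read 14.01, 13.99, 14.67 and 14.28 in MHb under sevoflurane, O2, propofol and Intralipos, 13.21, 13.40, 13.81 and 13.61 in Sol, 13.10, 12.95, 13.53 and 13.00 in LHb, and 11.20, 10.51, 11.13 and 11.08 in MVe. MHb was the highest region and MVe the lowest under every treatment, with no overlap of their arrays with those of any other region. Sol was lower than MHb by -0.73 ± 0.15 (adjusted p = 0.00087), and Sol and LHb, the neighbours in the middle of the order, did not differ past the threshold (0.36 ± 0.15, 95% interval 0.04 to 0.69, adjusted p = 0.0992). LHb exceeded MVe by 2.17 ± 0.15 (adjusted p = 4.8e-09), 4.49-fold, and MHb exceeded MVe by 3.26 ± 0.15 (adjusted p = 4.7e-12), 9.57-fold.

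Maob, found in serotonin neurons and in astrocytes, read 13.21, 12.15, 12.44 and 12.93 in Sol under sevoflurane, O2, propofol and Intralipos. It read 11.66, 11.22, 11.69 and 11.87 in MHb, 11.19, 10.82, 11.55 and 11.56 in LHb, and 10.77, 9.90, 10.97 and 10.29 in MVe. Sol was the highest region, 1.07 ± 0.19 above MHb (adjusted p = 0.00012), and MVe the lowest, 0.80 ± 0.19 below LHb in the LHb minus MVe contrast (adjusted p = 0.0031). The habenular neighbours were not told apart (LHb minus MHb -0.33 ± 0.19, 95% interval -0.72 to 0.06, adjusted p = 0.219). Maoa and Maob lie next to each other on the X chromosome with 0 annotated genes between them in RefSeq, yet Maoa was highest in MHb and Maob in Sol.

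Counted together, 9 of the 10 genes were higher in Sol than in the mean of the other regions and 0 were lower, where 34.5% of all 15037 genes were called in either direction and 18.5% were higher. The median fitted difference was 2.87 over the 10 genes and -0.03 over all genes. For 7 of the 10 genes all 12 readings outside Sol were under the background value. For Ddc this held for every MHb array and for all but 1 MVe array. With each array centred on its median, 9 of the 10 were again called, all higher, while the median over all genes was -0.18 and 34.8% of all calls were higher, against 53.7% on the deposited scale. In 7 of the 10 genes (all but Ddc, Slc6a4 and Maoa) the 4 Sol arrays lay above all other 12, which held for 4.97% of all genes. Against single regions, 9 were called for Sol minus MVe, all higher (35.2% of all genes were called, 19.3% higher). For Sol minus LHb 8 were called, all higher (25.3% of all genes, 14.3% higher). For Sol minus MHb 9 were called (38.7% of all genes, 19.8% higher and 18.9% lower), of which 8 were higher and Maoa was lower. In bulk tissue, fewer cells of a type and less RNA per cell cannot be told apart.

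Between the parts of the habenula, 3 of the 10 genes were called for LHb minus MHb, against 28.5% of all genes (14.1% higher and 14.4% lower). Ddc was higher in LHb by 3.88 ± 0.25 (adjusted p = 6.3e-10), at least 4.72-fold, in 4 of 4 treatments. Maoa was lower in LHb by -1.09 ± 0.15 (adjusted p = 2.1e-05), and Th was lower by -0.47 ± 0.16 (adjusted p = 0.0416), both in 4 of 4 treatments. The Th values of both regions were not above background, and the Th call was lost when any of 7 of the 8 habenular arrays was left out, namely the LHb and MHb arrays other than LHb under Intralipos (adjusted p up to 0.135). For the whole habenula minus the hindbrain regions, 8 genes were called (38.1% of all genes, 18.3% higher and 19.8% lower), 7 lower and Maoa higher (1.45 ± 0.11, adjusted p = 4.4e-09). The lower ones were the 7 genes of synthesis and transport other than Slc6a4. The hindbrain mean includes Sol, where all 7 had their highest mean. Against MVe alone, Dbh, Gch1, Slc18a2 and Tph2 were not called for LHb or for MHb. Of the 7 only Ddc was above background in the habenula, and only in LHb.

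Between the habenula and MVe the picture was thinner. LHb minus MVe had 4 calls (26.7% of all genes, 13.7% higher and 13.0% lower), with Ddc, Maoa and Maob higher in LHb and Slc6a2 lower (-0.68 ± 0.23, adjusted p = 0.0374). MHb minus MVe had 5 calls (40.9% of all genes, 21.0% higher and 19.9% lower), with Maoa, Maob and Th (0.76 ± 0.16, adjusted p = 0.001) higher in MHb and Ddc and Slc6a2 (-0.73 ± 0.23, adjusted p = 0.0162) lower. The Th values of both regions were not above background. Slc6a2 in MVe read 5.54, 4.70, 4.38 and 4.89 under sevoflurane, O2, propofol and Intralipos, all under the background value. Leaving out MVe under sevoflurane, the highest of these, ended both Slc6a2 calls (adjusted p = 0.190 against LHb and 0.0997 against MHb), and LHb minus MVe was also lost without LHb under sevoflurane (0.120), LHb under O2 (0.126), LHb under propofol (0.0925) or MVe under Intralipos (0.0712), and MHb minus MVe without MHb under Intralipos (0.0672).

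Genes around the pathway did not all follow. The lists below were tested in the same fit, with the same background of 34.5% called. Of the 4 measured genes of 7 on the tetrahydrobiopterin list, 0 were higher in Sol and 2 were lower. These were Pts, the second enzyme after Gch1 (-0.64, adjusted p = 0.0018), and the recycling enzyme gene Qdpr (-0.55, adjusted p = 0.0038). The list's median was -0.51, against -0.03 for all genes. Among 13 measured genes of 14 for other enzymes, 3 were higher in Sol, 1 was lower and 9 were not called (median -0.07). Pnmt, which turns noradrenaline into adrenaline, read 6.11, 5.20, 5.06 and 5.25 in Sol under sevoflurane, O2, propofol and Intralipos and 3.49 to 4.18 elsewhere (1.60, adjusted p = 2.9e-07), all under the background value. The aldehyde enzyme genes Aldh2 (1.77) and Akr1b1 (1.27), which act after the oxidases, were higher, and Hnmt, which inactivates histamine, was lower (-1.84, adjusted p = 1.2e-09).

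Among 5 measured genes of 6 for other carriers, 2 were higher in Sol and 1 was lower (median 0.24). Slc29a4, the plasma membrane monoamine transporter, read 10.66, 10.46, 9.69 and 10.07 in Sol, 9.19, 8.76, 8.84 and 9.0 in MVe, and 5.23 to 6.56 in both habenular regions (3.43, adjusted p = 6.2e-11). Slc22a3 was higher by 0.58 and Slc18a1, the vesicular transporter of endocrine cells, was lower (-0.43), both with no value above background. Of the 6 dopamine and trace amine receptor genes, 3 were higher in Sol, Taar1 (2.88), Drd5 (1.60) and Drd2 (1.57), and Drd1 was lower (-0.87), with a list median of 0.76. Taar1, Drd5 and Drd2 were not above background in any region other than Sol. Drd1, a receptor that dopamine fibres act on, read 7.97, 6.87, 8.16 and 7.91 in LHb under sevoflurane, O2, propofol and Intralipos and 3.48 to 3.91 in MHb (fitted LHb minus MHb 4.03, adjusted p = 3.3e-10), where it was not above background.

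Of 11 measured genes of 16 for transcription factors of catecholamine neurons, 2 were higher in Sol, 1 was lower and 8 were not called (median 0.00). Tfap2b, a factor for noradrenaline neurons in mice, read 10.26, 10.21, 10.81 and 10.08 in Sol and 3.55 to 4.55 elsewhere (6.31, adjusted p = 4.6e-15). Phox2a, which drives the noradrenaline fate, was higher by 0.38 (adjusted p = 0.027) with no value above background, and Nr4a2, a factor of midbrain dopamine neurons, was lower (-3.50, adjusted p = 1.8e-10). Nr4a2 was bright in the habenula, at 15.64 to 16.77 in MHb and 14.46 to 15.25 in LHb. Of 6 measured genes of 7 for factors of serotonin neurons, 0 were called in either direction. The largest difference there was that of Fev, the factor that switches on Tph2 and Slc6a4 in serotonin neurons, at -0.26 (adjusted p = 0.18), with Sol values of 5.10, 4.82, 4.98 and 4.75 under sevoflurane, O2, propofol and Intralipos, none above background. Tph2 thus stood high in Sol on arrays where neither Slc6a4 nor Fev was above background.

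**Figure D2:**
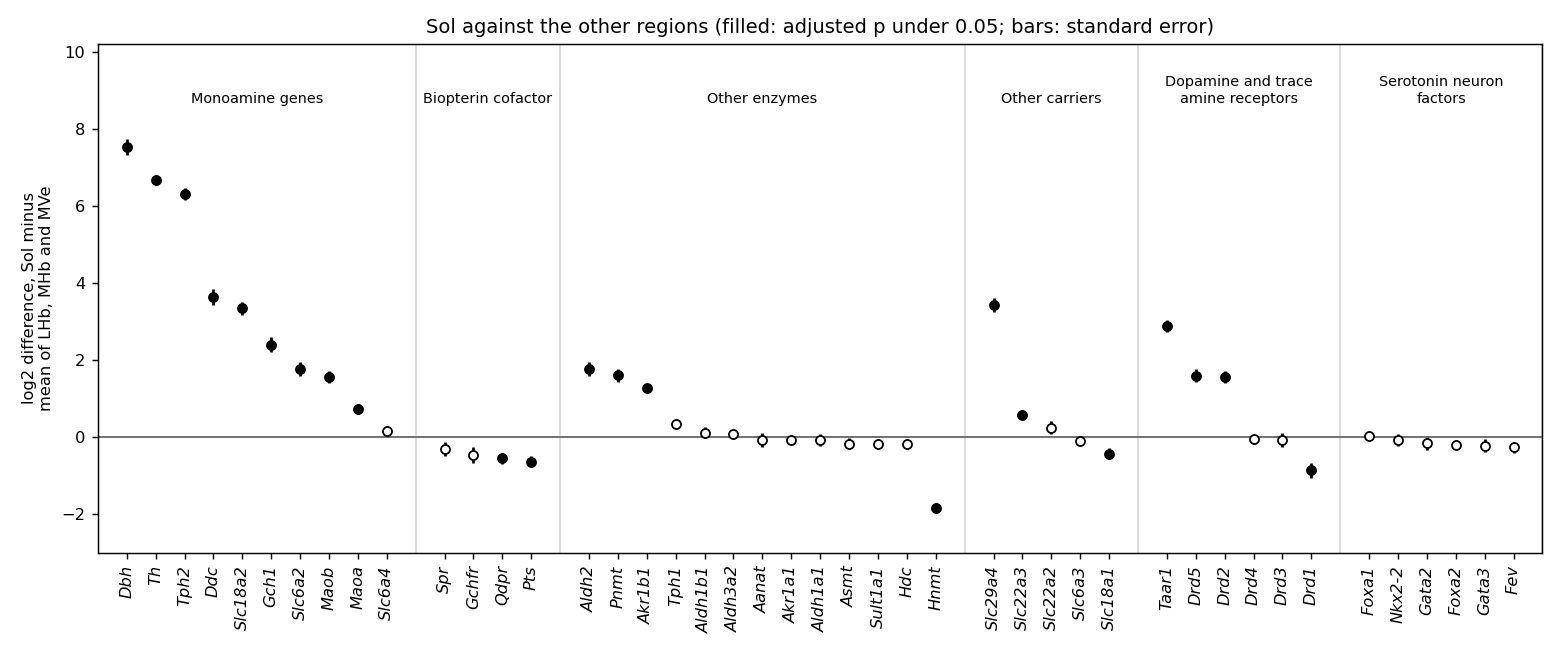
Log2 difference between Sol and the mean of LHb, MHb and MVe (vertical axis) for the 10 monoamine genes and for 5 groups of related genes, with standard error bars; filled points passed an adjusted p of 0.05. The fitted differences of Dbh, Th and Tph2 stand above 6 against regions not above background, while the cofactor genes and the factors of serotonin neurons lie at or under 0.05.

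Cell type and region markers moved with the Sol contrast too, in which 34.5% of all genes were called in either direction and 18.5% higher. Astrocyte markers were higher in Sol for 9 of 10 genes (median 1.95), with a mean log2 level of 14.90 to 15.15 in Sol, 14.03 to 14.39 in LHb, 11.21 to 11.68 in MHb and 14.25 to 14.64 in MVe. Microglia markers were higher for 9 of 9 (mean levels 7.63 to 8.89 in Sol and 6.36 to 7.90 elsewhere), and oligodendrocyte markers were lower for 10 of 11 (10.85 to 11.15 in Sol and 11.92 to 14.0 elsewhere). Of 5 area postrema markers 4 were higher in Sol, Calcr, Gfral (1.80), Ramp3 (0.79) and Casr (0.56), with a mean level of 5.61 to 6.39 in Sol and 4.32 to 5.07 elsewhere. Gfral, which neurons of the area postrema and the adjoining Sol express, read 7.05, 7.33, 7.84 and 7.29 in Sol under sevoflurane, O2, propofol and Intralipos. The part of these cells in the monoamine differences was not tested.

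For each gene the named genes of most similar profile were found by the root mean square difference of log2 values over the 16 arrays, after centring each gene within each array set. For Th they were the galanin gene Gal (0.26), Ppp1r17 (0.40) and Hoxb5 (0.48), and Tph2 came next (0.49). For Dbh they were Hoxb5 (0.39), Gal (0.55) and Th (0.55). Tph2 was nearest to Ppp1r17 (0.33), Tfap2b (0.34) and Gal (0.46). The nearest to Ddc were Camk2a (0.51), Cacng3 (0.54) and Galr1 (0.55), with the next member of the pathway, Slc18a2, at 1.41. Gch1 was nearest to Gpr26 (0.32), Hoxa6 (0.32) and Kcng3 (0.32), and Slc18a2 to Pdpn (0.38), Fzd2 (0.41) and Taar1 (0.41). For the oxidases, Maoa was nearest to Samd14 (0.29), Magee2 (0.30) and Zfp483 (0.31), and Maob to Dusp8 (0.35), Cmtm4 (0.36) and Entpd2 (0.36). Slc6a2 was nearest to Nadk (0.33), Ppp3ca (0.34) and Plec (0.35). Slc6a4, whose profile is nearly flat, was nearest to Clec4a2 (0.14), Zbtb42 (0.15) and Clcn3 (0.15). These distances share arrays and regions and describe likeness over 16 arrays only.

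The next question was whether either anesthetic changed these genes against its own control. After sevoflurane, 0 of the 10 genes passed the test against O2, where 0.0% of all 15037 genes passed, while 751 genes had an unadjusted p under 0.05, 4.99% of all, and 1 of the 10 did. That gene was Maob. It was higher under sevoflurane than under O2 in 4 of 4 regions, with 13.21 against 12.15 in Sol, 11.19 against 10.82 in LHb, 11.66 against 11.22 in MHb and 10.77 against 9.90 in MVe. The difference was 0.69 ± 0.19 (95% interval 0.30 to 1.08), 1.61-fold, with an unadjusted p of 0.0017 and an adjusted p of 0.729, and so was not called. The other 9 genes lay between -0.23 ± 0.26 for Dbh and 0.23 ± 0.19 for Slc18a2, with adjusted p of 0.98 or more. The lowest limit among their 95% intervals was -0.79, for Dbh, and the highest 0.64, for Slc18a2. For the genes above background in Sol alone, 3 of the 4 pairs behind these averages read under the background value. For Slc6a2 and Slc6a4 all 4 did. The Sol pair of Dbh was -1.18, outside its interval of -0.79 to 0.32, so the intervals do not bound an effect in Sol.

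After propofol, 0 of the 10 passed against Intralipos, where 0.02% of all genes passed and 1040 genes, 6.92%, had an unadjusted p under 0.05. Slc18a2 was the 1 of the 10 under that mark. It was higher under propofol than under Intralipos in 4 of 4 regions, with 8.06 against 7.15 in Sol, 4.46 against 3.73 in LHb, 4.001 against 3.80 in MHb and 4.07 against 3.79 in MVe. The difference was 0.53 ± 0.19 (95% interval 0.12 to 0.94, unadjusted p = 0.0135, adjusted p = 0.646) and was not called; only the Sol pair was above background. Maoa was also at a higher value under propofol in 4 of 4 regions (0.29 ± 0.15, 95% interval -0.03 to 0.62, adjusted p = 0.757), from a gap of 0.05 in MVe to 0.53 in LHb. Ddc had 0.37 ± 0.25 (adjusted p = 0.83), with 1.02 in MVe, 0.82 in Sol, -0.16 in LHb and -0.21 in MHb. Its MVe and MHb pairs were not above background. The other 7 genes lay between -0.17 ± 0.23 for Slc6a2 and 0.14 ± 0.26 for Dbh. Of these, Th, Dbh, Gch1 and Tph2 were above background in the Sol pair only, and Slc6a2 and Slc6a4 in no pair. The Sol pair of Dbh was 1.22. The median over the 10 genes was 0.05 for sevoflurane minus O2 and 0.11 for propofol minus Intralipos, with 0.01 over all genes in both.

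Set against each other, the sevoflurane and the propofol effect differed in 0 of the 10 genes (0.0133% of all genes). Maob came nearest, with a sevoflurane effect above its propofol effect (0.00 ± 0.19) in 4 of 4 regions, by 0.69 ± 0.26 (unadjusted p = 0.0179, adjusted p = 0.946). Among the 7 pathway lists beside the 10 genes, 0 genes were called in either anesthetic comparison. The regulators of Th by activity and stress had the highest list medians, 1.397 for sevoflurane minus O2 with 7 of 8 above 0 and 0.77 for propofol minus Intralipos with 6 of 8 above 0. Egr1, an immediate early factor that acts on the Th promoter in cultured rat cells, led both (3.40, adjusted p = 0.28, and 1.90, adjusted p = 0.64), while Th, above background in Sol alone, had -0.22 and 0.51 in its Sol pairs.

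**Figure D3:**
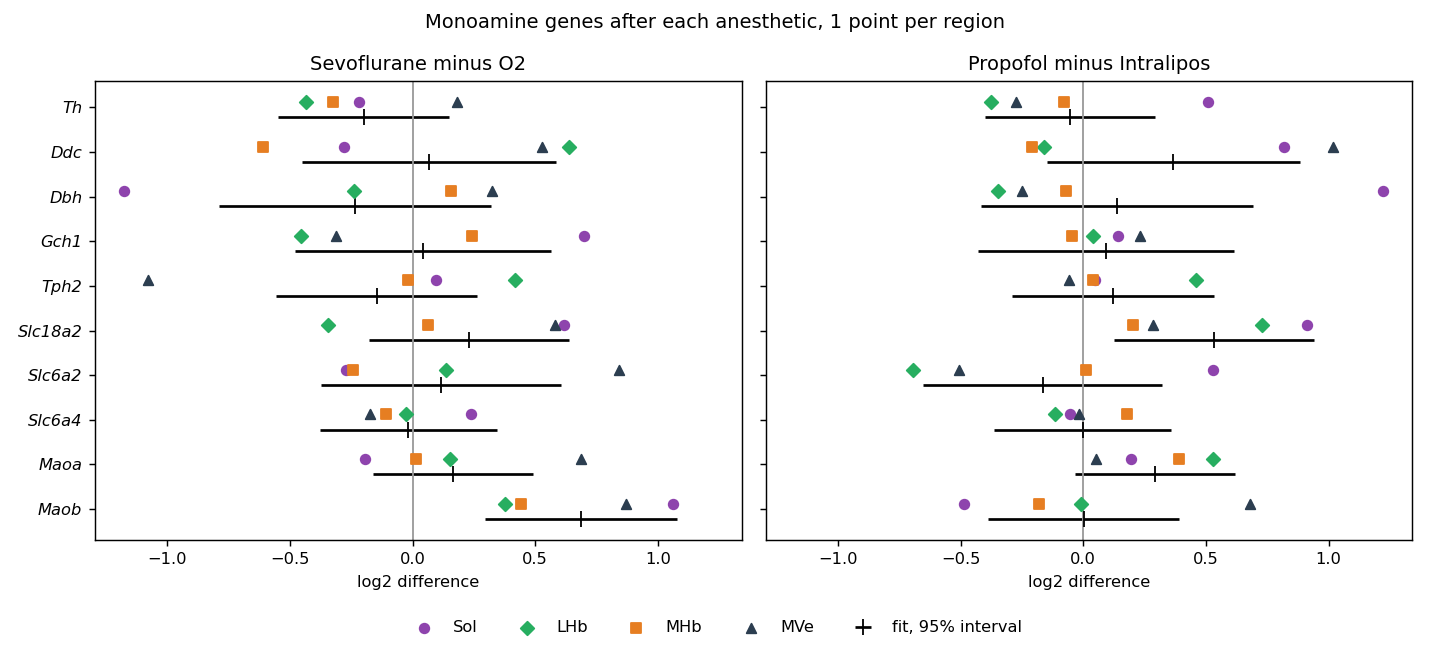
Log2 difference for each of the 10 genes (vertical axis) in each region (points), sevoflurane minus O2 on the left and propofol minus Intralipos on the right, with the fitted difference and its 95% interval under the points. Maob after sevoflurane and Slc18a2 after propofol have 4 of 4 points above 0; in Sol, Dbh has -1.18 on the left and 1.22 on the right.

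Inside Sol the pairs of arrays pointed different ways. These are differences between single arrays with no replicate check. Dbh was lower under sevoflurane than under O2 (-1.18) and higher under propofol than under Intralipos (1.22), and 0.55% and 0.84% of all genes had differences as large in those pairs. Th went the same way with smaller values, -0.22 and 0.51, and Ddc had -0.28 and 0.82. Gch1 was higher in both pairs (0.70 and 0.14), as was Slc18a2 (0.62 and 0.91), and Maob was higher after sevoflurane (1.06) and lower after propofol (-0.49). Tph2 was flat, at 0.09 and 0.05.

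Whether an effect in Sol differed from that in the other 3 regions was tested as an interaction. None of the 10 genes passed for sevoflurane (0.0% of all genes) or for propofol (0.00665%). Each effect in Sol is 1 pair of arrays, so the spread in this test comes from LHb, MHb and MVe and holds none of that between Sol arrays. Dbh had a difference of effects of -1.26 for sevoflurane and 1.44 for propofol, Gch1 0.88 for sevoflurane and Th 0.75 for propofol. These genes were not above background in the 3 regions that supply the spread, so no error or p is given for them. For the habenula against the hindbrain, none of the 10 genes passed either (0.0% of all genes for each anesthetic). In limma's fit the nearest were Slc18a2 under sevoflurane (-0.74 ± 0.34, adjusted p = 0.927) and Ddc under propofol (-1.10 ± 0.39, adjusted p = 0.895). These p-values come from limma's fit across all genes with 6 residual degrees of freedom, and Slc18a2 was above background in Sol alone. Ddc was not above background on any MHb array or on all but 1 MVe array.

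Markers of the dissected area also varied among the 4 Sol arrays. Calcr read 8.76, 8.64, 7.36 and 6.07 under sevoflurane, O2, propofol and Intralipos, and Gcg read 8.04, 8.68, 7.72 and 7.57. Within the second array set Calcr was higher on the propofol array than on the Intralipos array, as were Th, Dbh, Ddc, Gch1, Slc18a2 and Tph2, while Maob was lower. Within the first, Calcr was slightly higher under sevoflurane than under O2, as were Gch1, Slc18a2, Tph2 and Maob, while Th, Dbh and Ddc were lower. Npy, which many catecholamine neurons of the medulla express, read 11.01, 9.85, 10.45 and 10.92 and differed in the direction opposite to Dbh in both pairs. The mean of the solitary nucleus markers was 7.17, 7.41, 6.52 and 6.13 in the same order. That of the area postrema markers was 6.27, 6.39, 5.98 and 5.61, and that of choroid plexus and ependyma 6.21, 7.11, 6.55 and 5.28. Gcg and these means were, like Th, Dbh and Ddc, lower under sevoflurane than under O2. They were also higher under propofol than under Intralipos. The astrocyte marker mean (15.15, 15.04, 14.90 and 15.11) differed the opposite way in both pairs. The part of the dissection in the Sol differences was not tested.

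**Figure D4:**
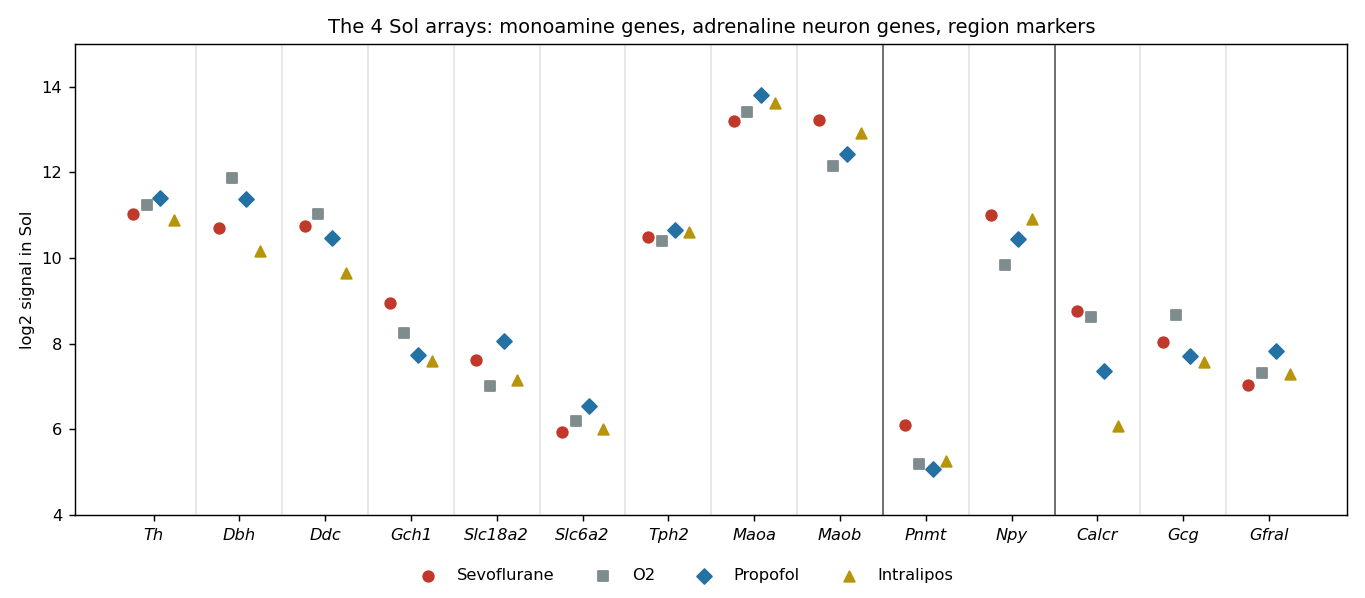
Log2 signal (vertical axis) on the 4 Sol arrays, with 1 point per treatment. Shown are 9 monoamine genes, Pnmt and Npy from the list for adrenaline neurons, and the region markers Calcr, Gcg and Gfral. Pnmt was under the background value on every array, and many catecholamine neurons of the medulla express Npy. Dbh spans 10.16 to 11.88 and Calcr 6.07 to 8.76, while Tph2 stays between 10.39 and 10.65.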

How the data were processed

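The deposited series matrix held 1 value for each of 24834 probe sets and 16 arrays. Its values had been normalized in Affymetrix Expression Console (version 1.3.0), per the submitters' processing notes. The deposited scale was taken as log2 from the range of the values, and the sources used here do not state it, the summarization or the genome build. Control probe sets (94) and 9691 without a symbol were left out, and where a gene had several probe sets that of highest mean stayed. Genes were not filtered on level. In limma 3.58.1 (R 4.3.3) treatment and region were fitted to all 16 arrays, with 9 residual degrees of freedom and two-sided tests adjusted by Benjamini-Hochberg over all genes. Numbers after ± are moderated standard errors unless SD is written. The 10 genes, the lists and the markers were chosen with earlier results of these data known. Named were the 10 genes, from each list up to 4 called genes of largest change (or, with none called, the largest), and 3 nearest profiles. The levels of Chat, Pvalb and Gfral and the fold limit were added after the values were seen. Simulated arrays with known changes were used to test the fits. Alternatives were other normalizations, filters, variance models and array subsets, and each array left out.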

Additional observations from a re-analysis of the deposited data

Results flagged for a closer look

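For each gene, the 4 arrays of a treatment (over regions) and the 4 of a region (over treatments) were searched for 1 that stood far from the rest, by the gap to its nearest neighbour as a share of the range (Dixon's ratio, set against its 95% critical value for 4 arrays). Of 80 groups tested, 40 over regions and 40 over treatments, 20 were past it, all of them groups of different regions. Chance marks about 1 in 20 groups of replicates, a rate that does not apply to arrays of regions already found to differ, so these marks restate the regional differences. In 19 of them the Sol array was the highest. For Th the ratio was 0.907 under sevoflurane, 0.844 under O2, 0.902 under propofol and 0.921 under Intralipos. For Dbh it was 0.926, 0.979, 0.982 and 0.980 in the same order, and for Tph2 0.925, 0.845, 0.964 and 0.949. Gch1 was past it under sevoflurane (0.863), O2 (0.8502) and Intralipos (0.894), Slc18a2 under sevoflurane (0.926), propofol (0.888) and Intralipos (0.980), and Slc6a2 under propofol (0.831). The remaining group was Slc6a4 under O2, where MVe read 5.37 and the other regions 4.71 to 4.77 (0.901), all under the background value. Over the treatments of a region, no gene had an array past the critical value.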

How the results depend on the processing

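Over the 10 genes, every contrast and every alternative, 2721 values were recomputed. The sign was opposite to that on the deposited scale in 91 of them, belonging to 30 differences of which 0 were called and the largest had a size of 0.23; 25 values lost a call and 2 gained one. Counts of called genes in Sol minus the other regions and habenula minus hindbrain were 3 and 2 where only genes with an overall mean at the median or above were tested, a filter that 3 of the 10 genes pass, and were 8 to 9 and 7 to 8 otherwise; leaving out single arrays left them at 9 and 8. LHb minus MHb had 2 to 3 calls, as Th dropped out (adjusted p = 0.0848 with trended and robust variance, 0.0523 with region within array set as the replicate block, 0.120 and 0.381 in the 8 arrays of each set). Slc6a2 lost LHb minus MVe under quantile normalization (0.0762) and in the propofol and Intralipos arrays (0.602), and MHb minus MVe in both sets (0.0589 and 0.100). Maoa gained Sol minus LHb with trended variance (0.0449) and lost Sol minus MHb in the sevoflurane and O2 arrays (0.0545), where Maob lost LHb minus MVe (0.0752). Th lost MHb minus MVe in the propofol and Intralipos arrays (0.101). The calls for both anesthetics and their difference stayed at 0 of 10 under every alternative, with no replicate block (treatment only, 0 calls) as well, while over all genes 0 to 8 were called for sevoflurane (8 without LHb under sevoflurane), 0 to 5 for propofol and 0 to 4 for the difference.

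Among uncalled values, quantile normalization turned Slc6a4 (0.0092) and Maob (-0.053) in propofol minus Intralipos. Centring the arrays turned Slc6a4 in Sol minus the other regions (-0.0052), Gch1 in sevoflurane minus O2 (-0.012) and Maob in propofol minus Intralipos (-0.013). In the sevoflurane and O2 arrays alone Slc6a4 had -0.083 in Sol minus the other regions. With single arrays left out, sevoflurane minus O2 ran from -0.38 to 0.090 for Dbh, -0.13 to 0.30 for Ddc, -0.31 to 0.26 for Gch1, -0.13 to 0.27 for Slc6a2, -0.28 to 0.12 for Tph2 and -0.15 to 0.13 for Slc6a4, against 0.54 to 0.81 for Maob. Propofol minus Intralipos ran from -0.22 to 0.039 for Th, -0.22 to 0.31 for Dbh, -0.12 to 0.28 for Gch1, -0.39 to 0.040 for Slc6a2, -0.12 to 0.12 for Slc6a4 and -0.15 to 0.17 for Maob, against 0.35 (without Sol under propofol) to 0.67 for Slc18a2. The cause of these turns was not tested. With the propofol and Intralipos arrays alone, fewer of all genes were called: 3077 against 5185 on 16 arrays for Sol minus the other regions, 3552 against 5736 for habenula minus hindbrain, 2714 against 4289 for LHb minus MHb, 2248 against 4019 for LHb minus MVe, 1821 against 3804 for Sol minus LHb, 3821 against 5820 for Sol minus MHb and 3233 against 5300 for Sol minus MVe; the sevoflurane and O2 arrays gave 2721 for LHb minus MHb. Centring moved the share of higher calls to 38.4%, against 49.4%, for LHb minus MHb, to 43.6%, against 56.5%, for Sol minus LHb, to 33.6%, against 51.0%, for Sol minus MHb and to 38.8%, against 54.7%, for Sol minus MVe. Values under the background value limit what can be said of Slc6a2, Slc6a4, Pnmt, Phox2a, Slc22a3 and Slc18a1, and of Th, Dbh, Gch1, Slc18a2, Tph2, Taar1, Drd2 and Drd5 outside Sol. The same limit holds for Ddc in MHb and MVe.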
